A study of Homo sapiens with 12 samples.

Results

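The genes described here make, recycle and use glutathione, the main small thiol of the cell. They are 10 genes chosen by name from the 23615 in the deposited tables: SLC7A11 (cystine import), GCLC, GCLM and GSS (synthesis), GSR (recycling of the oxidised form), GSTP1, GSTA4, GSTM3 and MGST1 (transferases), and ABCC1 (export of conjugates). All 10 were found in both tables, and all 10 passed the filter on low counts that kept 16005 genes for testing. RNA sequencing was done on HEK293T, a human embryonic kidney line, infected with lentivirus and selected with puromycin to express a short hairpin. One line carried a hairpin against HuR (shHuR), an RNA-binding protein encoded by ELAVL1, and the other a control hairpin (shControl). Each line was left untreated, or was given 25 µM HNE(alkyne), a tagged form of the lipid-derived electrophile 4-hydroxynonenal, or 225 µM hydrogen peroxide (H2O2). Treatment lasted 18 h. The 6 groups had 2 biological replicates each, 12 libraries in all. There was 1 line per hairpin, so an effect of HuR and any other difference between the lines cannot be told apart.

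Glutathione is built in a pair of steps from glutamate, cysteine and glycine. Cystine enters the cell through the xCT antiporter encoded by SLC7A11, and glutamate-cysteine ligase, a heterodimer of the catalytic subunit GCLC and the modifier subunit GCLM, carries out the first and rate-limiting step. Glutathione synthetase (GSS) adds glycine. Glutathione reductase (GSR) returns the oxidised disulfide to the thiol form with NADPH. Glutathione S-transferases join glutathione to electrophiles, and GSTA4 is known for its activity towards 4-hydroxynonenal. The transporter ABCC1 (MRP1) carries the conjugates out of the cell. Several of these genes are known targets of the transcription factor NRF2 (NFE2L2), which is held low by KEAP1 and binds antioxidant response elements in DNA.

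The promoters of the ligase subunits and of GSTP1 are shown because GCLM passed the test with HNE and its partner GCLC did not, and the 3 genes share a textbook link to NRF2. Each line gives the 100 bases before the RefSeq transcription start on GRCh38.p14, read 5′ to 3′ on the gene's strand, and capitals mark a match to TGACNNNGC, the core of the antioxidant response element, on either strand. GENCODE annotates further starts for these genes, so other transcripts may run through these stretches.
GCLM, chr1:93909431-93909530, minus strand: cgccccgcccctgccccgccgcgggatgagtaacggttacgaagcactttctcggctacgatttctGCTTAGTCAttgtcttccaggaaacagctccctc
GCLC, chr6:53545102-53545201, minus strand: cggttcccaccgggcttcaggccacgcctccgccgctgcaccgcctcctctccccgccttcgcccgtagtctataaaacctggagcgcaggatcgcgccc
GSTP1, chr11:67583712-67583811, plus strand: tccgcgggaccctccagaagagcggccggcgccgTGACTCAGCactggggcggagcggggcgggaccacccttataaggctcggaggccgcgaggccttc
The GCLM match lies on the opposite strand and begins 34 bases before the start. The GSTP1 match lies on the gene's own strand and begins 66 bases before it. No match was found in the 250 bases before the GCLC start, which says only that these letters are absent from that window. Of the 6 members with an entry in the promoter table, 3 had a match within 250 bases, GSTA4 being the other (TGACCTGGC, 9 bases before the start), and GSTM3 and MGST1 had none. Over all genes in the table, 13.2% had a match in a window of that length. Of the 3 members with a match, only GCLM was called with HNE over both lines. GSTP1 (edgeR adjusted p = 0.22) and GSTA4 (log2 fold change -0.117, edgeR adjusted p = 0.547) were not. Whether a match goes with the HNE response was not tested.

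The libraries held 24855946 to 29907258 counts. Replicates differed by more than sampling noise in every group, with a chi-square per degree of freedom of 3.02 to 22.6. The highest value was that of the HNE-treated shControl pair. ELAVL1 was 93.1 ± 4.91 CPM (reads of a gene scaled to the size of the library; SD) over the 6 shControl libraries and 71.3 ± 2.01 CPM over the 6 shHuR libraries. The lines did not overlap, with a log2 fold change of -0.38 (edgeR adjusted p = 2.60e-06, SE 0.0405). The knockdown was therefore partial at the RNA level. Of the 8 markers of HEK293 cells, KRT18, VIM, CDH2 and NEFL were present at medians of 35.3, 437, 123 and 88.6 CPM. KRT8 and NEFM had lower medians of 8.45 and 6.75 CPM, and the kidney factors PAX2 and LHX1 were low at 0.391 and 1.07 CPM. The summed level of the 8 markers was 718 to 804 CPM in shControl and 592 to 654 CPM in shHuR. VIM, at 345 to 521 CPM over the 12 libraries, made up most of this sum. The part of the summed level in the line differences below was not tested. Of 4 leukocyte markers, LYZ and CD68 had medians of 4.62 and 1.46 CPM and were counted in every library, while PTPRC and CD3E had 0.0366 and 0 CPM. Of 3 fibroblast markers, PDGFRA had 1.73, LUM 0.766 and DCN 0.0373 CPM. The summed leukocyte list was 4.76 to 8.5 CPM in shControl and 5.83 to 7.40 CPM in shHuR, and the fibroblast list 1.73 to 3.26 and 2.16 to 3.12 CPM. The hepatocyte, endothelial and muscle lists summed to 0.786 CPM or less in every library.

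Compared per gene length, GSTP1 stood far above the other 9 genes. Its median over the 12 libraries was 353 FPKM (fragments scaled to gene length and library size, range 318 to 433), at percentile 97.68 of the 16052 genes with a value in every library. GSR followed at a median of 43.5 FPKM, and every library's GSR value was above its GSS value. GSS (31.4 FPKM) and GSTA4 (28.9 FPKM) had overlapping ranges. Next came GCLM at 14.1, GCLC at 13.4, SLC7A11 at 12.3 and GSTM3 at 11.9 FPKM, and each neighbouring pair among these 4 overlapped in range. ABCC1 at 8.36 FPKM and MGST1 at 7.36 FPKM were lowest and also overlapped, MGST1 lying at percentile 50.26 over both lines. MGST1 was the member whose place depended on the line: at a median of 10.9 FPKM in shControl (percentile 59.08) it was above ABCC1 (8.36 FPKM), and at 4.86 FPKM in shHuR (percentile 42.49) it was below ABCC1 (8.13 FPKM). The order of GCLM, GCLC, SLC7A11 and GSTM3, whose ranges overlapped, also changed between the lines. The least deeply counted was MGST1, with 152 to 264 reads per shControl library and 63 to 124 per shHuR library.

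The comparison of the lines asks which of these transcripts differ where HuR is reduced. Averaged over the 3 treatments, SLC7A11, GSS, GSR, GSTA4 and MGST1 were lower in shHuR, and GCLM was higher. GCLC, GSTP1, GSTM3 and ABCC1 did not pass the test. The 6 of 10 called are to be read against a background of 29.9% of all 16005 genes called at an adjusted p under 0.05 by edgeR's quasi-likelihood test. By direction, 5 of 10 were lower against 15.9% of all genes and 1 of 10 was higher against 14.1%. The median log2 fold change of the 10 genes was -0.14, and that of all genes was -0.00177. The same 6 genes were called in each of 20 alternative fits.

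**Figure D1:**
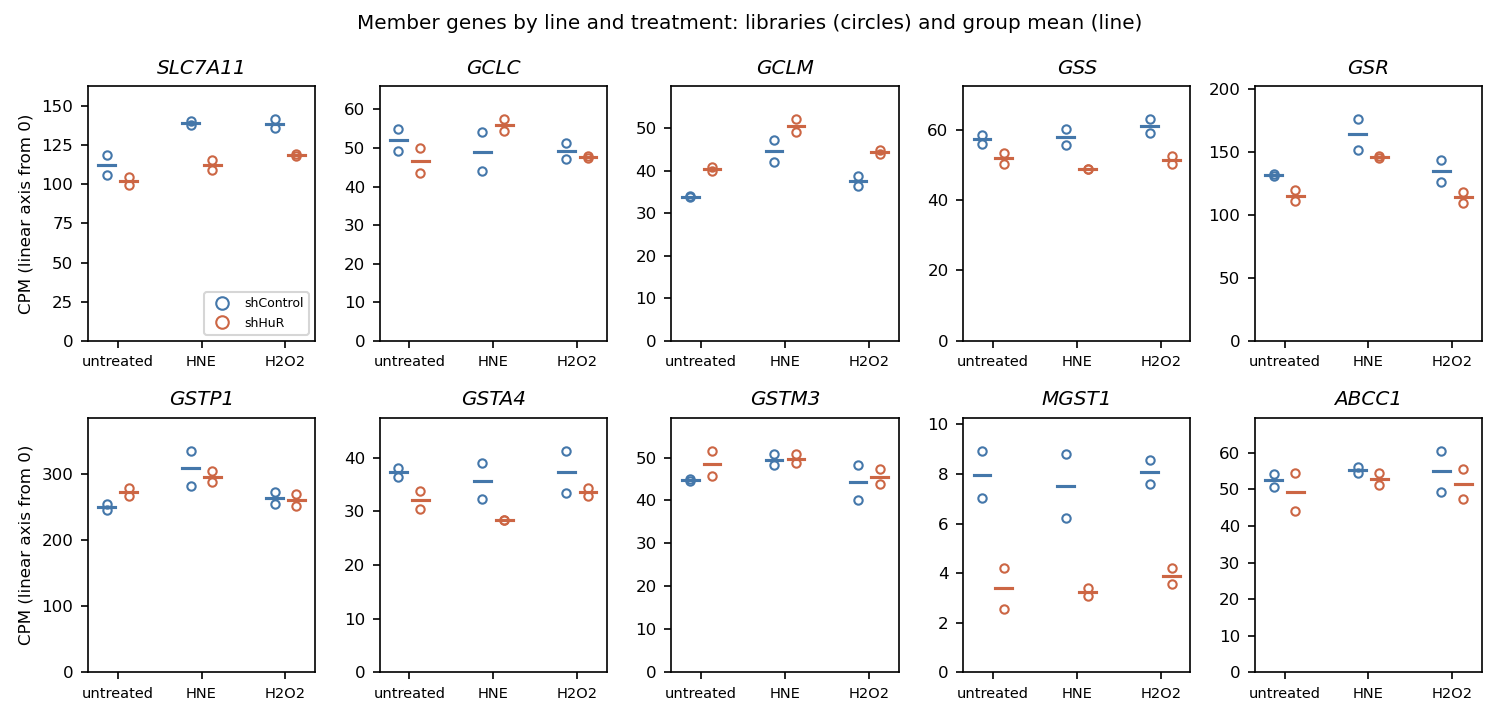
CPM of each of the 10 genes (vertical axes, linear from 0) in untreated, HNE-treated and H2O2-treated cells (horizontal axes). Circles are single libraries, short lines are means of 2, blue is shControl and orange is shHuR. The 6 MGST1 values in shHuR lie at 2.56 to 4.22 CPM, below all 6 shControl values, and GCLM is higher with HNE than untreated in both lines.

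MGST1 encodes a microsomal transferase and peroxidase of membranes, and showed the widest difference of the 10. In shControl its level was 8.93 and 7.01 CPM without treatment, 8.81 and 6.21 CPM after HNE, and 8.57 and 7.59 CPM after H2O2. In shHuR it was 2.56 and 4.21 CPM without treatment, 3.42 and 3.10 CPM after HNE, and 4.22 and 3.55 CPM after H2O2. Every shHuR library was below every shControl library. Over treatments MGST1 was 2.24-fold lower in shHuR, a log2 fold change of -1.16 (edgeR adjusted p = 4.24e-06, SE 0.129). In a bulk sample, fewer cells with the transcript and less of it per cell cannot be told apart. The gene lies on chromosome 12 from 16347142 to 16609259 on the plus strand (GRCh38, GENCODE).

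MGST1 was also called within each treatment. The log2 fold change was -1.22 (edgeR adjusted p = 0.00747, SE 0.237) in untreated cells, where 1 of the 10 genes was called against a background of 7.98%. With HNE it was -1.21 (edgeR adjusted p = 0.00826, SE 0.24), and 2 of the 10 were called against 8.27%, the other being SLC7A11. With H2O2 it was -1.06 (edgeR adjusted p = 0.0146, SE 0.234), and 1 of the 10 was called against 7.19%. These calls rest on pairs of libraries. The untreated call was lost without replicate 1 of either untreated group, and the HNE calls were lost without either HNE-treated shHuR library. The H2O2 call was lost without either H2O2-treated shHuR library or without replicate 1 of the H2O2-treated shControl group. In the other direction, leaving out either library of shControl cells given HNE raised the untreated count to 2 (GCLM and MGST1) and the H2O2 count to 5 (GCLM, GSR, GSS, MGST1 and SLC7A11). The same fits raised the calls over all genes, from 1277 to 2050 and 2055 in untreated cells and from 1151 to 1845 and 1839 after H2O2.

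**Figure D2:**
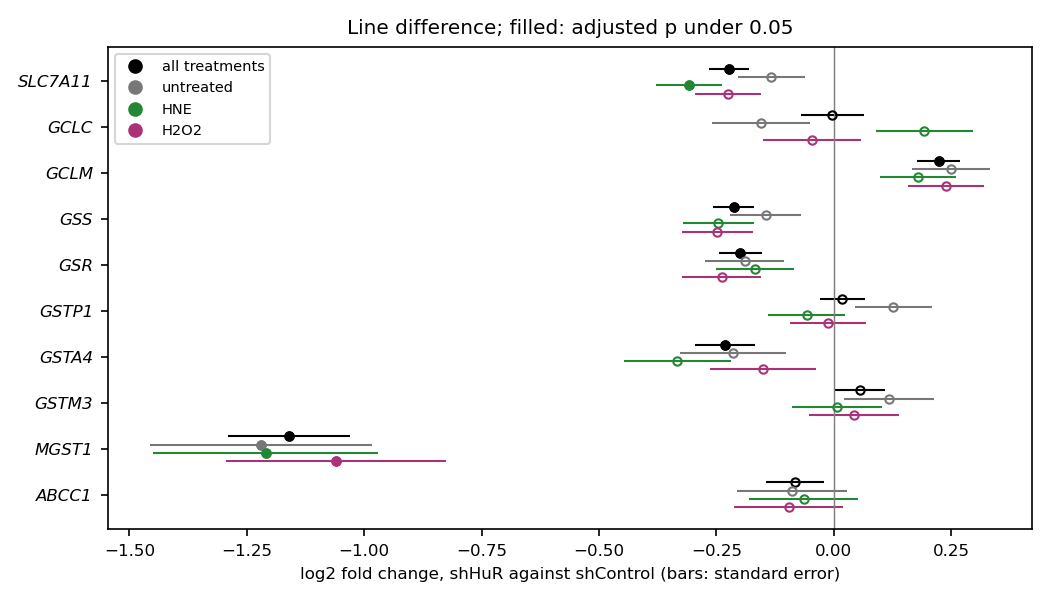
Log2 fold change of shHuR against shControl (horizontal axis) for each gene, over all treatments (black), untreated (grey), with HNE (green) and with H2O2 (purple). Bars are standard errors and filled points have an adjusted p under 0.05. MGST1 lies between -1.22 and -1.06 in all 4 comparisons and the other 9 genes lie between -0.33 and 0.25.

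The transcripts of the cystine carrier and of the last enzyme of synthesis were lower in shHuR. SLC7A11, which encodes the cystine-carrying chain of xCT, was at 119 and 106 CPM without treatment, 140.0 and 138 CPM after HNE, and 141 and 136 CPM after H2O2 in shControl. The shHuR line had 105 and 99.7 CPM without treatment, 115 and 109 CPM after HNE, and 118 and 119 CPM after H2O2. The 2 shHuR libraries were below the 2 shControl libraries within each treatment, while the lines overlapped across treatments. Its log2 fold change was -0.22 over treatments (edgeR adjusted p = 7.90e-04, SE 0.0426) and -0.31 with HNE (edgeR adjusted p = 0.0173, SE 0.0704). SLC7A11 lies on chromosome 4 from 138164097 to 138242349 (GRCh38, GENCODE). Of its 75-base windows, 7.59% also lie antisense to SLC7A11-AS1 or AC122129.1, so a share of its reads cannot be assigned unless counting used strand, and that setting is not given in the sources used here.

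GSS was at 58.6 and 56.0 CPM without treatment, 55.7 and 60.1 CPM after HNE, and 62.9 and 59.1 CPM after H2O2 in shControl. In shHuR the values were 50.3 and 53.3 CPM without treatment, 48.7 and 48.9 CPM after HNE, and 50.3 and 52.4 CPM after H2O2. The lines did not overlap. The log2 fold change of GSS was -0.21 (edgeR adjusted p = 0.00139, SE 0.0437), a drop from 58.7 ± 2.70 to 50.6 ± 1.85 CPM (SD, n = 6 each). GSS and MGST1 were the 2 of 10 genes whose 6 shHuR libraries all lay below the 6 shControl libraries, against 6.84% of all genes, and 0 of 10 lay wholly above, against 5.25%.

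Of the ligase subunits, GCLM differed between the lines and GCLC did not pass the test. GCLM was at 33.8 and 34.1 CPM without treatment, 47.2 and 42.0 CPM after HNE, and 38.8 and 36.5 CPM after H2O2 in shControl. The shHuR values were 39.9 and 40.8 CPM without treatment, 49.1 and 52.1 CPM after HNE, and 44.0 and 44.8 CPM after H2O2. Within each treatment both shHuR values were above both shControl values. The log2 fold change over treatments was 0.22 (edgeR adjusted p = 0.00156, SE 0.0463), and the values within a treatment, 0.25 untreated, 0.18 with HNE and 0.24 with H2O2, did not pass the test (adjusted p = 0.0798, 0.193 and 0.0967). GCLC averaged 50.1 ± 4.22 CPM in shControl and 50.1 ± 5.05 CPM in shHuR (SD, n = 6 each), with a log2 fold change of -0.003 (edgeR adjusted p = 0.983, SE 0.0664) that took either sign across the alternatives.

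Set against each other per length, the subunits differed in ratio among groups. The GCLM to GCLC ratio of FPKM values was 0.774 and 0.870 in untreated shControl, 1.35 and 0.975 with HNE, and 0.948 and 0.975 with H2O2. In shHuR it was 1.00 and 1.18 untreated, 1.13 and 1.14 with HNE, and 1.16 and 1.19 with H2O2. The untreated shControl libraries had the lowest ratios of the 12. The 6 shHuR ratios spanned a narrower range than the shControl ratios, mostly because of the 1 HNE-treated shControl library at 1.35. The other shControl ratios lay between 0.774 and 0.975, and the shHuR ratios between 1.00 and 1.19. The ratio was computed after the values of both genes were known and was not tested. For GCLC, 6.58% of 75-base windows also occur in AC009093.3 or AL033397.1, so its level carries that uncertainty.

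GSR, the reductase that regenerates glutathione, was lower in shHuR by a log2 fold change of -0.20 (edgeR adjusted p = 0.00351, SE 0.0461). In shControl it was at 131 and 133 CPM without treatment, 152 and 176 CPM after HNE, and 144 and 127 CPM after H2O2. Its shHuR levels were 119.8 and 111 CPM without treatment, 147 and 145 CPM after HNE, and 110.1 and 119 CPM after H2O2. Within each treatment the shHuR pair was below the shControl pair, and across treatments the HNE-treated shHuR libraries overlapped the shControl range.

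Of the 3 cytosolic transferases in the set, GSTA4 passed the test between the lines and GSTP1 and GSTM3 did not. GSTA4 was at 36.5 and 38.1 CPM without treatment, 39.1 and 32.3 CPM after HNE, and 41.3 and 33.5 CPM after H2O2 in shControl. In shHuR it was at 33.8 and 30.5 CPM without treatment, 28.4 and 28.4 CPM after HNE, and 34.4 and 33.0 CPM after H2O2. The pairs overlapped with H2O2 and were apart untreated and with HNE. The log2 fold change was -0.23 (edgeR adjusted p = 0.0108, SE 0.0639). GSTP1, the pi-class transferase, averaged 274 ± 32.9 CPM in shControl and 277 ± 18.2 CPM in shHuR (SD, n = 6 each), with a log2 fold change of 0.02 (adjusted p = 0.816, SE 0.0479). GSTM3, a mu-class transferase, averaged 46.2 ± 3.76 and 47.9 ± 3.00 CPM (0.06, SE 0.0534, adjusted p = 0.473). The exporter ABCC1 averaged 54.3 ± 3.98 and 51.2 ± 4.64 CPM (log2 fold change -0.08, SE 0.0624, adjusted p = 0.343). A p that misses the threshold does not show that the lines were alike for these 3 genes. For GSTM3, 3.14% of 75-base windows lie antisense to AL158847.1.

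The comparison of HNE with untreated cells asks how an electrophile changes these transcripts. Averaged over the lines, GCLM and GSR rose. The 2 of 10 called compare with 0.247% of all 15780 genes tested in the 8 libraries, and with 0.101% called higher. GCLM rose by 1.28-fold, a log2 fold change of 0.36 (edgeR adjusted p = 0.0344, SE 0.0625), from 33.8 and 34.1 to 47.2 and 42.0 CPM in shControl and from 39.9 and 40.8 to 49.1 and 52.1 CPM in shHuR. GSR rose by 1.26-fold, a log2 fold change of 0.33 (edgeR adjusted p = 0.0344, SE 0.0571), from 131 and 133 to 152 and 176 CPM in shControl and from 119.8 and 111 to 147 and 145 CPM in shHuR. Both calls are close to the threshold, GCLM being called in 4 and GSR in 6 of 16 alternatives. With 1 library left out, both were called only without replicate 2 of shControl given HNE and GSR alone without replicate 1 of the same pair, whereas neither was called without any one of the other 6 libraries. DESeq2 called both and also SLC7A11, among 181 genes in all where edgeR called 39. No member was called by limma on log2 FPKM.

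SLC7A11 and GSTP1 were higher with HNE without passing the test. Over both lines SLC7A11 had a log2 fold change of 0.22 (edgeR adjusted p = 0.164, SE 0.0593). For GSTP1, at 254 and 246 CPM without treatment and 282 and 335 CPM after HNE in shControl, and 279 and 267 CPM without treatment and 288 and 304 CPM after HNE in shHuR, it was 0.21 (edgeR adjusted p = 0.220, SE 0.0641). In both lines the HNE-treated pair lay above the untreated pair for SLC7A11, GCLM, GSR and GSTP1, 4 of 10 genes against 6.17% of all genes. No member had both HNE-treated libraries below both untreated libraries in each line, against 6.32% of all genes. GCLC, GSTM3 and ABCC1 had log2 fold changes of 0.09 each, GSS of -0.04, MGST1 of -0.07 and GSTA4 of -0.12, all with an adjusted p of 0.547 or more.

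Within a line, 0 of the 10 genes passed the test with HNE in edgeR's quasi-likelihood test, against 0.0187% of all genes in shControl and 0.075% in shHuR. At an unadjusted p under 0.05 there were 4 in shControl (GCLM, GSR, GSTP1 and SLC7A11) against 11.7% of all genes, and 3 in shHuR (GCLC, GCLM and GSR) against 8.95%. DESeq2 called 2 in shControl (GCLM and SLC7A11) and 1 in shHuR (GSR), and limma called 0 in each. Over all genes DESeq2 called 71 in shControl and 107 in shHuR, where edgeR called 3 and 12. GCLM had log2 fold changes of 0.40 (SE 0.0823) in shControl and 0.33 (SE 0.0816) in shHuR, and GSR had 0.32 (SE 0.0837) and 0.34 (SE 0.0841). In shControl, leaving out replicate 1 of the HNE-treated group left GSR and GSTP1 called, in a fit that raised the genes called in all from 3 to 859.

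**Figure D3:**
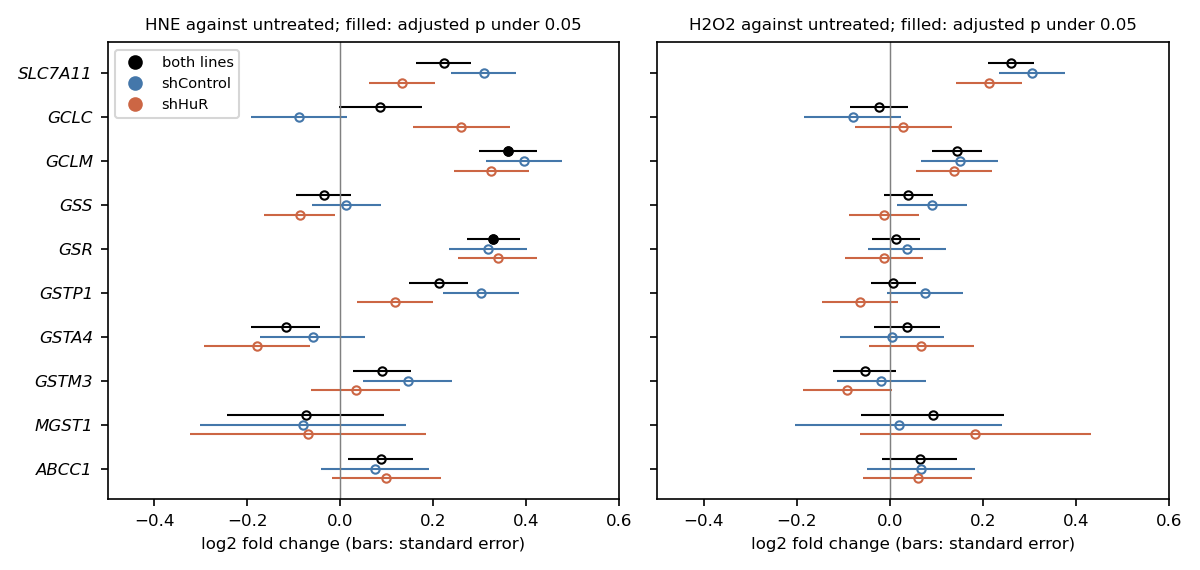
Log2 fold change against untreated cells for HNE (left) and H2O2 (right), over both lines (black), in shControl (blue) and in shHuR (orange), with standard errors. Filled points have an adjusted p under 0.05, and the 2 filled points are GCLM at 0.36 and GSR at 0.33 with HNE over both lines.

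The response to HNE was then compared between the lines. For the interaction of line and HNE, 0 of the 10 genes and 0% of all genes passed edgeR's quasi-likelihood test, 1 of the 10 had an unadjusted p under 0.05 against 6.73% of all genes, and neither DESeq2 nor limma called a member. That gene was GCLC, the catalytic subunit. GCLC was at 54.9 and 49.2 CPM without treatment and 43.9 and 54.1 CPM after HNE in shControl, where the pairs overlapped. In shHuR it was at 49.9 and 43.6 CPM without treatment and 54.5 and 57.5 CPM after HNE, where they did not. The difference between the HNE effects was 0.35 (SE 0.148, unadjusted p = 0.0331, edgeR adjusted p = 0.712). SLC7A11 had a smaller HNE effect in shHuR (0.13, SE 0.0707) than in shControl (0.31, SE 0.0703), with a difference of -0.17 (adjusted p = 0.750, SE 0.0997). For GCLM and GSR the differences were -0.07 (SE 0.116) and 0.02 (SE 0.118).

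With H2O2, 0 of the 10 genes and 0% of all 15801 genes passed edgeR's quasi-likelihood test over both lines. At an unadjusted p under 0.05 there were 2 of the 10, against 5.45% of all genes, and they were SLC7A11 and GCLM. The log2 fold change of SLC7A11 was 0.26 (SE 0.0493, edgeR unadjusted p = 1.01e-04, adjusted p = 0.534). DESeq2 called this 1 member (adjusted p = 0.00964) among 3 genes in all, and limma called 0 members. GCLM had 0.15 (SE 0.0536, unadjusted p = 0.0166, adjusted p = 0.900). In both lines the H2O2-treated pair lay above the untreated pair for these 2 of 10 genes, against 3% of all genes, and for 0 of 10 it lay below in both, against 3.18%. The remaining 8 genes had log2 fold changes of -0.05 (GSTM3) to 0.09 (MGST1). Within a line 0 of 10 and 0% of all genes were called in either line, SLC7A11 alone had an unadjusted p under 0.05 in each (4.34% of all genes in shControl and 3.37% in shHuR), and neither DESeq2 nor limma called a member.

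The 2 agents share their untreated controls, so their effects are set side by side only. SLC7A11 had 0.22 with HNE and 0.26 with H2O2, GCLM 0.36 and 0.15, GSR 0.33 and 0.01, and GSTP1 0.21 and 0.01. For the interaction of line and H2O2, 0 of the 10 genes and 0% of all genes were called by edgeR, 0 of the 10 had an unadjusted p under 0.05 against 3.62% of all genes, and DESeq2 and limma called 0.

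NFE2L2, which encodes NRF2, had log2 fold changes of 0.03 between the lines over treatments (edgeR adjusted p = 0.782), 0.12 for HNE (adjusted p = 0.560) and 0.28 for H2O2 (unadjusted p = 0.00475, adjusted p = 0.900) over both lines. For H2O2 it had 0.46 in shControl (unadjusted p = 4.56e-04, adjusted p = 0.998) and 0.10 in shHuR (unadjusted p = 0.354), and the difference between them did not pass the test (-0.37, unadjusted p = 0.0231, adjusted p = 1). KEAP1, its repressor, was higher in untreated shHuR cells by 0.32 (SE 0.0807, edgeR adjusted p = 0.0274), a call lost without any one of the 4 untreated libraries, and had 0.04 with HNE and 0.09 with H2O2, which did not pass. Over treatments the difference was 0.15 (edgeR adjusted p = 0.0451), a call lost in 11 of 20 alternatives, and the HNE effect over both lines was 0.14 (adjusted p = 0.458). By line the HNE effect on KEAP1 was 0.28 in shControl (edgeR unadjusted p = 0.00357, adjusted p = 0.24) and -0.004 in shHuR. The difference between these did not pass the test (-0.29, edgeR unadjusted p = 0.0248, adjusted p = 0.712). The part of either gene in the values of the 10 was not tested.

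HuR is known to bind AU-rich and U-rich stretches of 3′ UTRs, so these were counted in the GENCODE transcripts. MGST1 has 3 ATTTA motifs in a 3′ UTR of 368 bases, and 6.86% of 1894 UTRs of like length hold at least as many. SLC7A11 has 32 in 7859 bases, a count reached by 7.14% of 406 like UTRs. For GSR the U-rich TTTNTTT, counted with overlaps, occurs 27 times, a count reached by 1.24% of 2255 like UTRs. GCLM has 12 ATTTA motifs (28.8% of like UTRs hold as many), and GSS, GSTP1 and GSTA4 have 0 of either motif. Among the genes lower in shHuR are thus GSS and GSTA4, with none, and SLC7A11, GSR and MGST1, with a count that few UTRs of like length reach for 1 of the motifs. For the other motif, 64.3% (SLC7A11), 65.9% (GSR) and 100% (MGST1) of like UTRs hold as many. Members that were not called between the lines also hold motifs. GCLC has 11 TTTNTTT motifs, a count reached by 14% of like UTRs, and ABCC1 has 10 (24.6%). GSTM3 has 6 ATTTA motifs (57.4%). Whether the motifs go with the line difference was not tested. These are counts of letters, and binding was not analysed here.

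The wider glutathione pathway was read from 5 lists holding 67 further genes, of which 52 were tested. Between the lines 10 were higher in shHuR, 10 lower and 32 not called, and the 20 of 52 are to be read against the same 29.9%. Their median log2 fold change was -0.03. With HNE over both lines 0 of the 52 were called by edgeR, and 9 had an unadjusted p under 0.05 against 12.3% of all genes. DESeq2 called 2 of them and 181 genes in all. Some pathway genes had HNE effects near those of the called members without passing the test. GLO1 had 0.30 (edgeR adjusted p = 0.0652, SE 0.0612) and SLC3A2 0.27 (adjusted p = 0.150, SE 0.0686), whereas SLC1A4 had -0.34 (adjusted p = 0.215). Of the 52, 32 had a positive and 20 a negative HNE effect.

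Genes of cysteine supply moved in both directions between the lines, with 3 higher and 5 lower of 9. Over all genes 14.1% were higher and 15.9% lower. SLC1A1, a glutamate transporter that also takes up cysteine, was lower at 8.92 ± 0.873 against 12.9 ± 1.23 CPM (SD, n = 6 each; log2 fold change -0.54, edgeR adjusted p = 9.91e-05, SE 0.0814), with no overlap between the lines. CTH, which releases cysteine from cystathionine, was lower (-0.35 on the log2 scale, adjusted p = 2.51e-04), and so was MPST, a sulfurtransferase that uses the cysteine breakdown product mercaptopyruvate (-0.28, adjusted p = 0.00184). SLC1A4, a carrier of small neutral amino acids, was higher by 0.30 (adjusted p = 0.0104). The median of the list was -0.19. SLC3A2, the partner chain of SLC7A11 in xCT, was not called (-0.04, adjusted p = 0.569).

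The list of glutathione-dependent reductases and peroxidases also holds GLO1, HAGH, ESD and PTGES2, which are enzymes of other kinds. Of its 14 tested genes, 3 were higher and 1 lower, against 14.1% and 15.9% of all genes. TXNDC12, a thioredoxin-like protein of the endoplasmic reticulum, was at 41.8 ± 3.02 CPM in shControl and 68.1 ± 2.13 CPM in shHuR (SD, n = 6 each), a log2 fold change of 0.71 (edgeR adjusted p = 6.98e-09, SE 0.0422), with no overlap between the lines. GPX3, a secreted peroxidase, was higher by 0.56 (adjusted p = 0.0206; not called in 4 of 20 alternatives), and GLRX2, a mitochondrial glutaredoxin, by 0.37 (adjusted p = 0.00119). GLRX3 was lower by -0.13 (adjusted p = 0.0489), a call lost in 16 of 20 alternatives. The median of the list was 0.01.

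In the remaining 3 lists 8 of 29 tested genes (27.6%) were called, near the background of 29.9%. Of the other transferases 11 of 21 were tested, LANCL1, a glutathione-binding protein with transferase activity, being higher at 114 ± 5.13 against 84.6 ± 5.77 CPM (log2 fold change 0.44, edgeR adjusted p = 3.01e-06, SE 0.0465) and GSTO1 lower by -0.18 (adjusted p = 0.0412, lost in 12 of 20 alternatives). The 10 transferases not tested included GSTA1, GSTA2, GSTM1 and GSTT1, whose counts were too low. Of the other carriers 2 of 10 tested were higher and 2 lower. The higher ones were the mitochondrial carriers SLC25A11 (0.30) and SLC25A10 (0.28), with adjusted p of 0.00156 and 0.00138. Of the 2 lower, SLC25A40, linked to glutathione import into mitochondria, had -0.20 (adjusted p = 0.0476, lost in 15 of 20 alternatives), and the other is counted but not reported here. Of 8 tested genes of glutathione breakdown, CHAC2, a cytosolic glutathione-degrading enzyme, was higher by 0.27 (adjusted p = 0.0116), and DPEP1, named only because its list holds so few calls, was at 0.512 ± 0.199 CPM in shControl and 0.223 ± 0.113 CPM in shHuR (SD, n = 6 each; log2 fold change -1.22, SE 0.434, edgeR adjusted p = 0.0423), a call lost in 11 of 18 alternatives. The medians of these 3 lists were 0.02, -0.06 and -0.07.

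**Figure D4:**
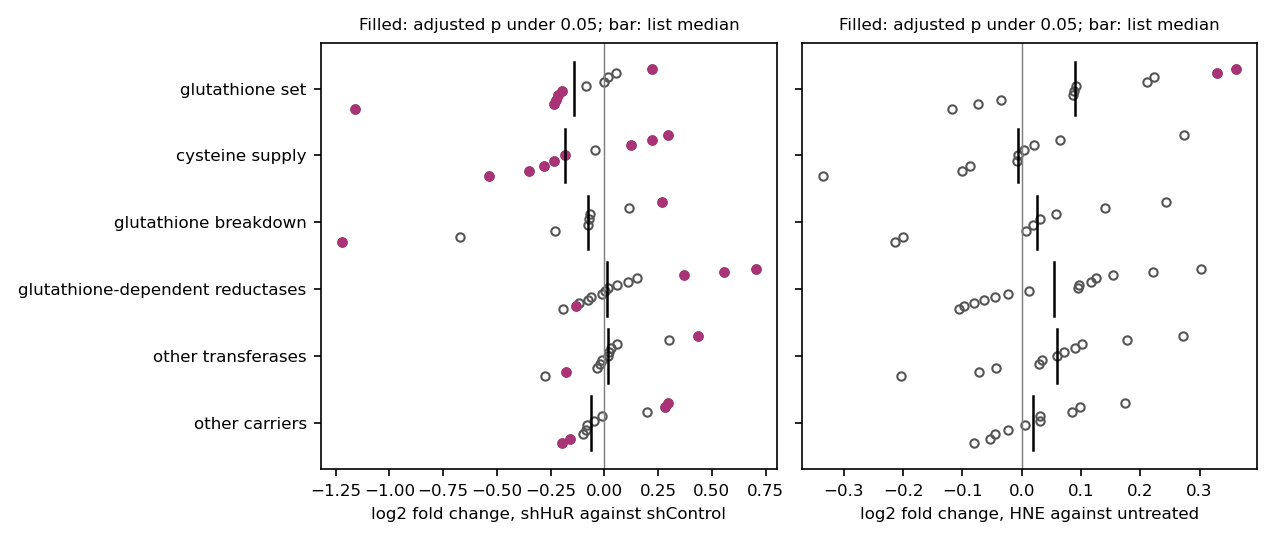
Log2 fold change of single genes (circles) in the 10-gene glutathione set and the 5 pathway lists, for shHuR against shControl (left) and HNE against untreated (right); black bars are list medians and filled circles have an adjusted p under 0.05. On the right the 2 filled circles, GCLM and GSR, belong to the 10-gene set, and 0 of the 52 pathway genes are filled.

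Over the 12 libraries the Pearson correlation of log2 CPM between GCLM and SLC7A11 was 0.00414, across lines that differ in opposite directions for the pair. Within a line it was 0.732 in shControl and 0.451 in shHuR (6 libraries each, from 3 treatments). Among 11268 genes with a mean of at least 5 CPM, the genes most like GCLM were TLCD1 (r = 0.938), UBQLN1, DHX8, EXOSC1 and RNF114 (r = 0.917). Most like SLC7A11 were CDKN1B (r = 0.903), POFUT1, FAH, POLR3E and PPP1R15B (r = 0.868). These are descriptions over libraries that share the same 6 groups. Within the set, GSTP1 was nearest to GCLM (r = 0.584) and GSS nearest to SLC7A11 (r = 0.665).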

How the data were processed

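Estimated counts and FPKM values, by gene symbol and library, were used as the authors deposited them. The submitters' processing notes name cutadapt 1.8, Bowtie2 2.2, TopHat2 2.1, Cufflinks 2.2, Cuffnorm and Cuffdiff, and the build GRCh37 (hg19). Per the labels' protocols, ribosomal RNA was removed and directional libraries were read as single-end 75-base reads. The annotation and the strand setting of counting are not given in the sources used here. Total counts per library, 24855946 to 29907258, set the precision, and PCR copies cannot be told from separate molecules.

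Counts were rounded (all values of the 10 genes were whole), filtered with filterByExpr (minimum count 10, by group) and scaled by TMM (factors 0.965 to 1.03). edgeR 4.0.16 (R 4.3.3) fitted quasi-likelihood models across all genes, calling genes at a Benjamini-Hochberg adjusted p under 0.05. Pairwise comparisons and interactions used 6 group means (6 residual degrees of freedom); the average line effect used 12 libraries with treatment as covariate, and average HNE and H2O2 effects 8 libraries with line as covariate. The standard error is the log2 fold change divided by the square root of F. Alternatives were DESeq2 1.42.0, median-ratio size factors, library size alone, no filter, a replicate block, limma 3.58.1 with a trend on log2(FPKM + 1) (with and without a mean FPKM filter of 1) and log2(FPKM + 0.1), which understate changes of low genes, the compared groups by themselves, and fits without each library. The edgeR fits were also run on simulated counts with changes of known size, larger than most effects of the 10 genes. That run therefore does not cover effects of the size reported for them. Levels between genes use FPKM.

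The 10 genes and all lists were chosen with earlier results of these data known. Named genes were the 10, ELAVL1, NFE2L2 and KEAP1, and up to 4 called genes per pathway list with the largest change and a mean of at least 1 CPM. DPEP1, with a mean of 0.367 CPM, was named as an exception to this floor. For HNE, GLO1, SLC3A2 and SLC1A4 were named after their values were known. Positions, 3′ UTRs and 75-base windows come from GENCODE release 29 (GRCh38) and promoters from RefSeq (GRCh38.p14), which differ from the authors' build; the files carry no coordinates. Promoters of SLC7A11, GSS, GSR and ABCC1 are not shown. A further called gene of the pathway lists is counted in the totals but not reported here.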

Additional observations from a re-analysis of the deposited data

How the results depend on the processing

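The 6 calls of the line comparison over treatments were made in each of 20 alternatives, and their direction did not change. The HNE calls over both lines were the least stable: the count of 2 became 3 with DESeq2 and 4 without a filter on low counts, 1 with library size alone, 0 with limma on log2(FPKM + 1), log2(FPKM + 0.1) or the former without a filter, and 0 to 2 when 1 library was left out. Over all genes the main fit called 39 with HNE, DESeq2 181, the fit without a filter 334 and library size alone 37. The higher member counts thus came from fits that called more genes in all. The replicate numbers are not stated to pair the samples, and deviations of same-numbered libraries correlated from -0.176 to 0.218. With the number as a replicate block the HNE count was 0, and no other count of calls among the 10 genes changed.

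Within a line, the HNE count of 0 became 2 in shControl and 1 in shHuR with DESeq2, 4 and 1 without a filter, and 0 to 2 in shControl when 1 library was left out. Over all genes the main fit called 3 in shControl and 12 in shHuR with HNE. DESeq2 called 71 and 107, and the fit without a filter 329 and 198. For H2O2 over both lines DESeq2 and the fit without a filter each called 1 member, among 3 and 117 genes in all. The fit without a filter also called 1 member in shControl, among 91 genes. Between lines with HNE the count of 2 became 1 with limma on log2(FPKM + 1) without a filter, 0 with the compared groups alone, and 0 to 3 with 1 library left out. With H2O2 the count of 1 became 2 with limma on log2(FPKM + 1), 0 with the same without a filter, and 0 to 5 with 1 library left out; untreated it was 0 to 2.

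Signs turned only for values near 0 or with wide errors that no fit called. The GCLC line effect was 0.002 with DESeq2 and median-ratio factors, 0.020 with library size alone, and 0.003 without a filter and with each limma fit. With 1 library left out, the line effect ranged from -0.059 to 0.041 for GCLC, from -0.018 to 0.064 for NFE2L2 and, with H2O2, from -0.294 to 0.013 for GSTA4. The HNE effect ranged from -0.198 to 0.054 for MGST1 over both lines and from -0.240 to 0.049 for GCLC in shControl. The H2O2 effect over lines ranged from -0.073 to 0.019 (GCLC), -0.030 to 0.045 (GSR), -0.028 to 0.041 (GSTP1), -0.021 to 0.103 (GSTA4) and -0.030 to 0.203 (MGST1). The interaction with HNE ranged from -0.154 to 0.028 (GCLM), -0.071 to 0.130 (GSR) and -0.291 to 0.425 (MGST1), and that with H2O2 from -0.054 to 0.036 (GCLM). The causes were not tested. With 2 libraries per group, changes within 1 line or 1 treatment of the size seen for the averaged effects mostly did not pass the test.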
